A study of Sus scrofa with 9 samples.

Results

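Small RNA libraries of porcine granulosa cells (PGCs) held 15 entries of the microRNA miR-339 among 1345 entries in all, and they are described here as its length variants. The members were taken by name: every entry called miR-339, on either arm of the hairpin and with any change at its ends, in the table's own names. They came to 14 different sequences, since 1 sequence was listed under 2 names, and 13 of the 15 entries carried a porcine name (ssc); the remaining 2 were named after dog (cfa) and mouse (mmu). Among them ssc-miR-339_R-2, ssc-miR-339_R-1 and ssc-miR-339_L-2 were chosen by their fold changes between these same groups, so their differences are given as a description with no test. Below, the prefix ssc-miR-339 is left out.

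The cells were primary granulosa cells of the ovary from Landrace × Yorkshire crossbred sows, cultured in DMEM with fetal bovine serum, and each group is labelled with a treatment of 12 h. CON libraries came from cells given 0 μM H2O2, LOS libraries from cells given 100 μM and MOS libraries from cells given 300 μM, with 3 libraries per group. H2O2 served as a model of oxidative stress (OS) at a low (LOS) and a high (MOS) dose, and the comparisons ask which small RNAs differ at each dose. Whether the 3 libraries of a group came from separate sows or cultures was not stated, and a p-value here rests on the spread among libraries that may be technical repeats.

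A microRNA hairpin is cut into a short duplex, and 1 strand of it, usually the 5p or the 3p arm, is kept by an Argonaute protein and guides it to messenger RNAs. Pairing rests mostly on the seed, the bases just inside the 5′ end, so a variant that has lost bases at its 3′ end keeps its seed, while loss at the 5′ end shifts it. Such variants, called isomiRs, arise from uneven cutting by Drosha and Dicer and from enzymes that trim or extend the 3′ end of the mature strand. For miR-339 the 5p arm is the abundant strand in most tissues, and in human cells the transcript of MDM2, an inhibitor of p53, has been reported as a target of it. The RefSeq gene table of Sscrofa11.1 lists a pair of porcine genes, MIR339-1 within the span of C3H7orf50 and MIR339-2 within the span of MEGF11, with 0 other microRNA genes within 10 kb of either, and the entries could not be assigned to one or the other.

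The names count bases against the database sequence of the species in the prefix, so cfa R+4 counts from the dog sequence. Against the porcine sequence, R-2 lacks 2 bases at the 3′ end, R+1 has 1 base more there, L-2 lacks 2 bases at the 5′ end, and 1ss20CT marks 1 substitution. The 6 sequences below are those on which the comparisons of length turn, running from 18 to 23 nt with 1 shared start, except L-2, which begins at base 3. Letters are DNA letters as in the deposited table, and capitals mark the seed, bases 2 to 8 of each sequence.
R-3: tCCCTGTCctccaggagc
R-2: tCCCTGTCctccaggagct
R-1: tCCCTGTCctccaggagctc
R+1: tCCCTGTCctccaggagctcac
cfa R+4: tCCCTGTCctccaggagctcaca
L-2: cCTGTCCTccaggagctca

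The dog-named R+4 entry and the mouse-named entry hold the same 23 nt sequence, which is R+1 followed by A, and it was counted once. None of the 15 entries taken by name was the unmodified 21 nt form of ssc-miR-339, so that form was not analysed here. The sum of the 5p arm, the shares of it and the mean length given below thus cover 11 sequences without that form. The seed CCCTGTC was common to 9 sequences (10 entries), and L-2 and L-2R+1 had CTGTCCT. Of the 3 entries of the other arm, 3p and 3p_R-1 had the seed GCTCCTC and 3p_L+1 had AGCTCCT. These seeds belonged to miR-339 alone in this table, since 0 other entries had any of the 4 in that position.

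The next 3 sequences carry a change at a single base near the 3′ end, and they are printed because their level is set beside that of the shorter forms. Differences are counted from base 1 at the 5′ end of R+1. R-1_1ss20CT (C20T) equals R-2 followed by T, R-2_1ss19TG (T19G) equals R-3 followed by G, and 1ss19TC (T19C) has the full 21 nt.
R-1_1ss20CT: tCCCTGTCctccaggagctt
R-2_1ss19TG: tCCCTGTCctccaggagcg
1ss19TC: tCCCTGTCctccaggagccca

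Values are the authors' normalized counts, and 1 read was worth a fixed step in each library, so reads could be estimated from them. By that estimate CON libraries held between 8827764 and 13486271 reads, LOS libraries between 12853437 and 16764959, and MOS libraries between 7793727 and 9321692, so the MOS libraries were mostly the shallower ones. Nearly all entries stood at 4 reads or more where they were listed at all, and a value of 0 may therefore hide up to 3 reads. Of 4 granulosa markers, 3 were found (miR-21, miR-202 and miR-224, but no entry of miR-383). Together, almost wholly as miR-21, they accounted for between 41.1% and 48.1% of each CON library, between 45.4% and 46.9% of each LOS library and between 35.8% and 38.7% of each MOS library. Hidden in that sum, miR-202 was at 2984, 3652 and 3635 normalized counts in CON, at 3981, 3688 and 3992 in LOS, and at 1675, 1791 and 1203 in MOS. The scarcer miR-224 was at 21.5, 8.04 and 14.4 in CON and at 17.5, 21.7 and 7.58 in MOS, so it overlapped. Marker lists of blood, vessel, epithelial, muscle and nerve cells each accounted for at most 0.0709% of any library, and among them the epithelial list was at no more than 0.00689% in MOS and 0.000292% in CON. In such bulk libraries fewer cells of a type and less RNA per cell cannot be told apart, and the part of these differences in the results on miR-339 was not tested.

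Most of the 5p arm was made of 2 sequences, the 22 nt R+1 and the 23 nt form. R+1 was at 5080, 7094 and 7269 normalized counts in CON, at 5969, 5817 and 5545 in LOS, and at 5736, 5415 and 6196 in MOS. The lowest and the highest of these values were both CON libraries, so both treated groups lay inside the CON range. The 23 nt form was at 1934, 2655 and 2958 in CON, at 2270, 2170 and 2464 in LOS, and at 3051, 2741 and 2416 in MOS. Again the groups overlapped, with CON replicate 1 the lowest library for both sequences. The 23 nt form stood out in 1 respect: its estimated reads were whole in 2 of 9 libraries but came out whole in 9 of 9 once multiplied by 3 (within 0.1 read), while every other miR-339 entry was whole in all 9. Its listed value may thus be a fraction of the reads that carry the sequence, which would lower its share of the arm, and this was not tested.

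The 20 nt form R-1, which ends 2 bases before R+1, was the third most abundant. It was at 476, 721 and 677 normalized counts in CON, at 558, 463 and 556 in LOS, and at 940, 1076 and 1027 in MOS. All 3 MOS libraries lay above all CON and all LOS libraries, whereas LOS and CON overlapped. R-1 averaged 1014 ± 68.7 normalized counts in MOS and 625 ± 131 in CON (SD, n = 3 each), a log2 fold change of 0.72 (SE 0.17) on the log2(value + 1) scale. In LOS it averaged 525 ± 54.2, and the log2 fold change against CON was -0.23 (SE 0.17). Set against R+1 in the same library, which needs no scaling between libraries, R-1 amounted to 9.37%, 10.2% and 9.32% of R+1 in CON, 9.34%, 7.96% and 10.0% in LOS, and 16.4%, 19.9% and 16.6% in MOS.

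The 19 nt form R-2 was far scarcer and showed the wider gap. It was at 8.22, 14.3 and 13.1 normalized counts in CON, at 14.6, 3.82 and 10.9 in LOS, and at 46.1, 51.6 and 40.6 in MOS. Each MOS library was above every other library, and LOS replicate 2, at 3.82, was the lowest of the 9. These values stand for an estimated 74, 81 and 75 reads in MOS, against 13, 32 and 29 in CON. The log2 fold change was 1.90 (SE 0.43) for MOS against CON and -0.38 (SE 0.43) for LOS against CON, and for LOS it was 0.12 without LOS replicate 2. Relative to R-1, R-2 amounted to 1.73%, 1.98% and 1.93% in CON, 2.62%, 0.824% and 1.96% in LOS, and 4.91%, 4.80% and 3.96% in MOS, so in MOS the shorter form was also higher relative to the longer one.

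The 18 nt form R-3 was listed in all 9 libraries but did not reach 10 normalized counts in 3 of them and was not tested. It was at 3.16, 6.25 and 2.71 in CON, at 4.42, 2.12 and 6.17 in LOS, and at 14.3, 12.7 and 5.42 in MOS. MOS replicates 1 and 2 were above the rest, and MOS replicate 3 lay within the range of the CON and LOS libraries.

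**Figure D1:**
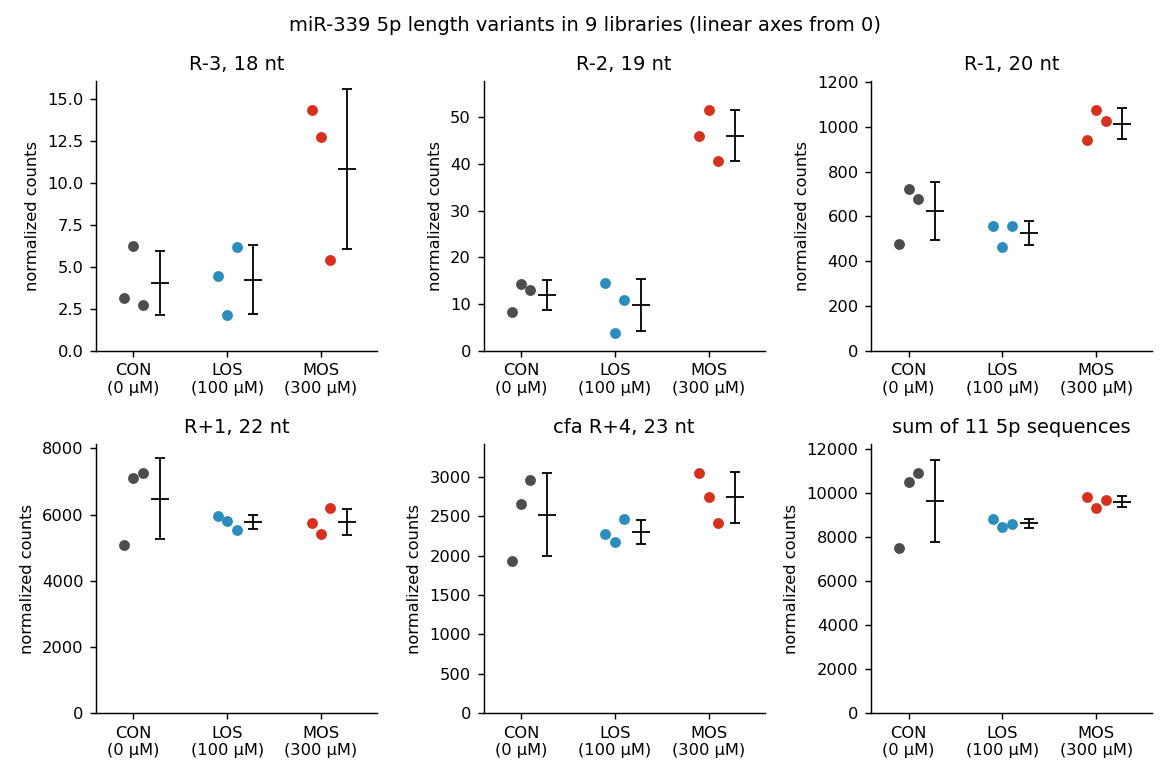
Normalized counts (y axes, each from 0) of 5 length variants of miR-339 5p and of the sum of all 11 5p sequences in CON, LOS and MOS libraries (x axes). Points are the 3 libraries of a group and bars the mean ± SD; R-2 and R-1 were higher in all MOS libraries, while R+1, the 23 nt form and the 5p sum of MOS overlapped CON.

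R-1_1ss20CT, the R-2 sequence with 1 more T, was at 6.32, 9.82 and 9.48 normalized counts in CON, at 5.78, 5.93 and 5.22 in LOS, and at 14.3, 19.1 and 13.5 in MOS. The 3 groups did not overlap, with LOS lowest and MOS highest. It passed the filter on low values (10 normalized counts in 3 libraries) only through the MOS libraries, so it had to be higher there, and its differences are given with no test. The log2 fold change was 0.81 (SE 0.31) for MOS against CON, 1.31 (SE 0.31) for MOS against LOS and -0.50 (SE 0.31) for LOS against CON. Over the alternative settings it ran from 0.47 with a pseudocount of 10 to 1.01 with equal library totals for MOS against CON, and from 0.71 to 1.53 for MOS against LOS. This form amounted to 76.9%, 68.8% and 72.4% of R-2 in CON, 39.5%, 156% and 47.8% in LOS, and 31.1%, 37.0% and 33.3% in MOS. All MOS libraries were thus below all CON libraries in this ratio, while the LOS libraries lay on both sides of CON.

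The other sequences with a substitution were near the lower limit of the table. 1ss19TC stood at an estimated 12, 10 and 12 reads in CON, 15, 10 and 12 in LOS, and 5, 0 and 7 in MOS, and in normalized counts MOS lay below both other groups. R-2_1ss19TG was listed in MOS replicates 1 and 2 alone, with 4 and 6 reads, and 1ss20CT in LOS replicate 3 alone, with 4 reads. Together the 4 sequences with a substitution accounted for at most 0.185% of the 5p sum in CON, 0.149% in LOS and 0.246% in MOS.

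The forms that start at base 3, and so carry another seed, were rarer still. L-2 stood at an estimated 6, 5 and 6 reads in CON, 4, 0 and 0 in LOS, and 4, 5 and 4 in MOS. In LOS it was thus listed in replicate 1 alone, and the LOS group summed to 4 reads, against 17 in CON. The ratio of the normalized rates was 0.192 for LOS over CON. As a ratio of means it was 0.156, and 0.464 if both zeros stood for 3 reads. For MOS over CON the ratio of rates was 0.920. L-2R+1, which has the same start and the 3′ end of R+1, stood at 0, 7 and 8 reads in CON, 8, 0 and 4 in LOS, and 19, 5 and 0 in MOS, with no order between the groups. Both forms together never exceeded 0.146% of the 5p sum.

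The sum of the 11 listed 5p sequences tells whether they differed as a whole. It was 7519, 10510 and 10941 normalized counts in the CON libraries, 8831, 8466 and 8597 in the LOS libraries, and 9822, 9326 and 9704 in the MOS libraries. CON replicates 2 and 3 were above all treated libraries and CON replicate 1 was below them, so the CON range enclosed both treated groups. Between the doses there was no overlap, with all MOS libraries above all LOS libraries. The sum averaged 9617 ± 259 in MOS and 9657 ± 1864 in CON (SD, n = 3 each). The log2 fold change of the sum was 0.013 for MOS against CON, with a 95% interval of -0.29 to 0.32 and an adjusted p of 0.973 in limma. It was -0.14 (-0.45 to 0.16, adjusted p = 0.937) for LOS against CON and 0.16 (-0.15 to 0.46, adjusted p = 0.433) for MOS against LOS. Two-sided exact permutation tests over the libraries gave p = 1.0, 0.4 and 0.1 for these 3 comparisons, and 0.1 is the smallest p that 3 libraries against 3 allow.

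The deposited totals were lower in MOS, at 4967112 to 5117859 normalized counts, than in CON, at 5578704 to 6084944. Setting all libraries to equal totals moved the median of all entries by 0.22 for MOS against CON and by 0.24 for MOS against LOS on the log2 scale. Under that scaling the 5p sum had a log2 fold change of 0.22 for MOS against CON (adjusted p = 0.183 in limma) and of 0.40 for MOS against LOS (adjusted p = 0.0294), and R+1 had 0.063 for MOS against CON, where it was -0.15 with the deposited scaling. For MOS against LOS the 23 nt form had 0.48 with equal totals (adjusted p = 0.0265 in limma), beside 0.24 with the deposited scaling (adjusted p = 0.291). In ppm of the normalized total the 5p sum was at 1919, 1877 and 1922 in MOS, against 1348, 1790 and 1798 in CON, so the overlap of MOS and CON held with the deposited scaling and not with equal totals. R-1 and R-2 were higher in MOS than in CON under each scaling, by 0.69 to 0.93 and by 1.87 to 2.11 on the log2 scale.

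**Figure D2:**
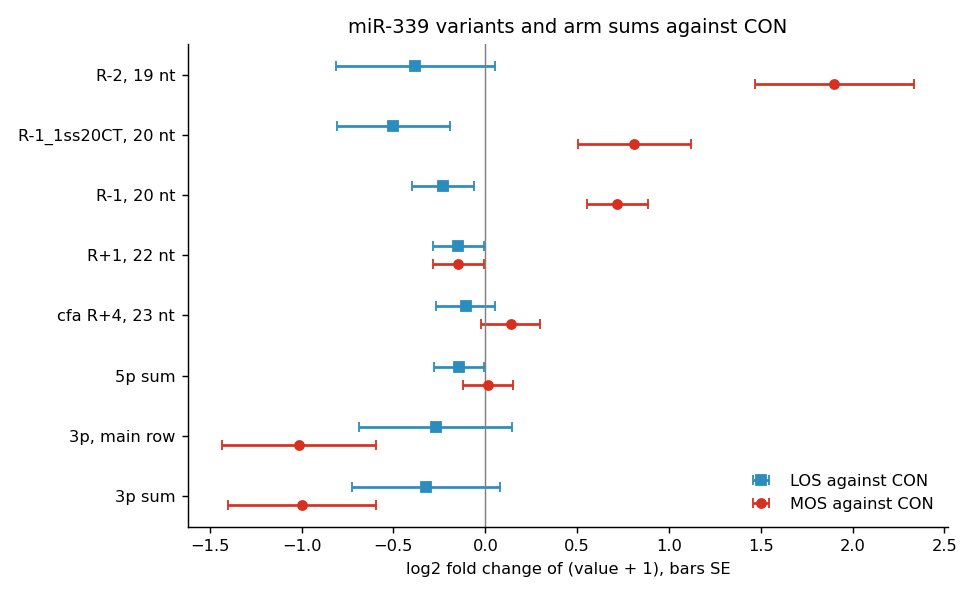
Log2 fold change of value + 1 (x axis) of 6 tested miR-339 sequences and both arm sums (y axis) for LOS (squares) and MOS (circles) against CON, with bars for the SE from limma. The MOS values ran from 1.90 for R-2 to -1.01 for the 3p entry, while the 5p sum was at 0.013.

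As shares of the 5p sum, R-1 and R-2 are given with no test, like their levels. R-1 made up 9.57%, 11.5% and 10.6% of the 5p sum in MOS, against 6.33%, 6.86% and 6.19% in CON. R-2 made up 0.470%, 0.554% and 0.419% in MOS, against 0.109%, 0.136% and 0.120% in CON. The sequences of 18 to 20 nt together came to 6.76% ± 0.381 in CON, 6.33% ± 0.629 in LOS and 11.4% ± 1.03 in MOS (SD, n = 3 each). That class was almost wholly R-1, which averaged 10.6% in MOS and 6.46% in CON, so it restates the values of R-1.

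The share of R+1 was 67.6%, 67.5% and 66.4% in CON, 67.6%, 68.7% and 64.5% in LOS, and 58.4%, 58.1% and 63.8% in MOS, so each MOS library was below every other library. The shares of an arm are bound to each other, so that of R+1 is not independent of R-1 and is given with no test. On average its share was 7.06 points lower in MOS than in CON, that of R-1 was 4.10 points higher and that of R-2 was 0.359 points higher. The 23 nt form made up 31.1%, 29.4% and 24.9% in MOS, against 25.7%, 25.3% and 27.0% in CON, so its mean was 2.44 points higher through MOS replicates 1 and 2 while MOS replicate 3 was below all CON libraries. The log2 ratio of the 23 nt form to the rest of the arm differed by 0.17 (SE 0.12) for MOS against CON and by 0.048 (SE 0.12) for LOS against CON. That rest includes R-1 and R-2, so this ratio too is given with no test. The mean length of the 5p sequences, weighted by their values, was 22.05 ± 0.039 nt in MOS and 22.12 ± 0.016 nt in CON.

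**Figure D3:**
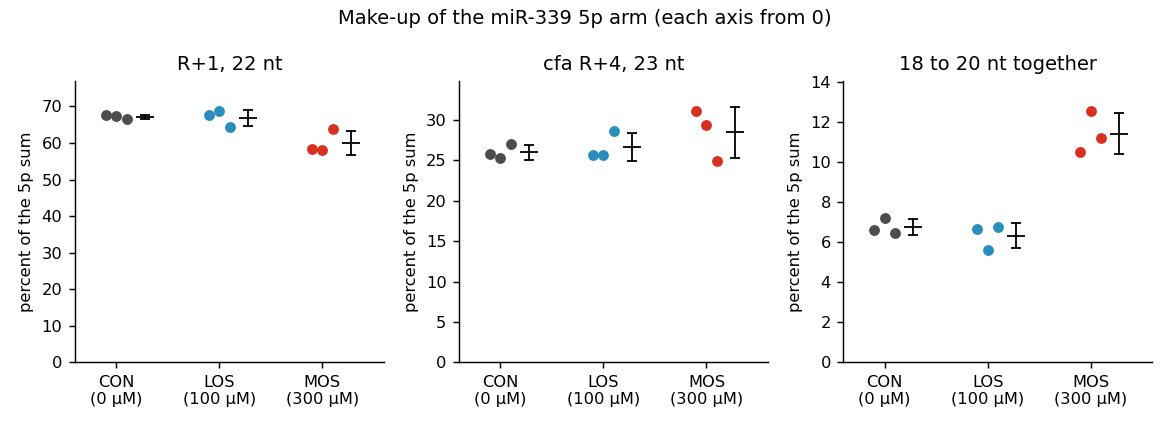
Percent of the miR-339 5p sum (y axes, each from 0) held by R+1, by the 23 nt form and by the sequences of 18 to 20 nt together in CON, LOS and MOS libraries (x axes), with points for libraries and bars for the mean ± SD. The short sequences, almost wholly R-1, were at 10.5% to 12.5% in MOS and at 6.48% to 7.20% in CON.

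The 3p arm, the scarcer strand here, was a small fraction of the 5p arm. Its main entry was at 22.1, 22.8 and 44.7 normalized counts in CON, at 26.2, 15.3 and 31.3 in LOS, and at 21.8, 12.1 and 9.21 in MOS. All MOS libraries were below all CON libraries, but MOS replicate 1 was close to the lower CON values. 3p_L+1 was at 8.85, 6.70 and 11.3 in CON, at 6.80, 5.09 and 8.07 in LOS, and at 8.73, 2.55 and 4.33 in MOS, and 3p_R-1 was listed in CON replicate 3 alone, with 4 reads. The 3p sum was 30.5, 14.7 and 13.5 in MOS, against 31.0, 29.5 and 57.8 in CON, and the groups overlapped. Its log2 fold change was -0.998 (-1.91 to -0.09, adjusted p = 0.0966 in limma) for MOS against CON and -0.32 (-1.23 to 0.59, adjusted p = 0.953) for LOS against CON. For MOS against CON it was -1.35 and passed the threshold without MOS replicate 1 (adjusted p = 0.0346 in limma), and it was -0.69 without CON replicate 3. The 5p sum was 322, 636 and 717 times the 3p sum in MOS, against 243, 357 and 189 times in CON.

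In all, 7 of the 15 entries (6 sequences) passed the filter and 8 did not. The entry just under it was 3p_L+1, whose third-highest value was 8.73, and the entry just over it was R-1_1ss20CT, at 13.5. Of the 757 entries tested, 29.3% passed the threshold for MOS against CON (20.2% higher and 9.11% lower), 2.91% for LOS against CON and 29.7% for MOS against LOS. Entries that reached the filter's minimum in MOS libraries alone had to be higher there, and they are in the shares for both comparisons with MOS. Other entries of 18 to 20 nt held 53 of them, and longer ones were not counted separately. Of the 4 tested miR-339 entries other than R-1, R-2 and R-1_1ss20CT, 0 passed in limma in each of the 3 comparisons, and 1, the 3p entry for MOS against CON, was at an unadjusted p under 0.05. The MOS libraries were all above the CON libraries for 3 of the 7 tested entries and all below them for 1. Among all entries tested the shares were 26.2%, which includes entries let through the filter by MOS alone, and 15.2%. Since R-1 and R-2 are among the 3 and R-1_1ss20CT passed the filter through MOS, nothing is read from the count for miR-339.

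Entries of 18 to 20 nt from other microRNAs and small RNAs numbered 169 among those tested, and 82 of them (48.5%) rose and 2 fell in MOS against CON, with a median log2 fold change of 0.88, beside 0.068 for all entries tested. Of the 169, 53 reached the filter's minimum in MOS libraries alone and so had to be higher there, and these 53 are among the 82. Of the other 116, 29 (25.0%) rose and 2 fell, with a median of 0.46. Several entries are copies of 1 pattern of values under different names. With each pattern counted once, 125 were left of the 169, of which 51 (40.8%) rose and 2 fell, with a median of 0.74. Of these 125, 26 reached the minimum in MOS libraries alone. Among the other 99, 25 (25.3%) rose and 2 fell, with a median of 0.53. Of the 581 other entries of 21 nt and longer, 69 rose and 67 fell, with a median of -0.017. Sequences of 18 to 20 nt made up 0.468%, 0.706% and 0.607% of the normalized total in MOS, against 0.278%, 0.317% and 0.228% in CON, each sequence counted once. The share of 18 to 20 nt sequences in the normalized total of the listed entries, which includes R-1 and R-2, was thus higher in MOS too. Its part in the levels of R-1 and R-2 was not tested.

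A name with bases missing at the 3′ end and no change at the 5′ end was carried by 85 other tested entries. Some of these names also carried a substitution. Of the 85, 14 (16.5%) rose and 5 (5.88%) fell in MOS against CON, beside 20.2% and 9.11% of all entries tested. Their median log2 fold change was 0.098. Measured as a share within the entries of the same name and species prefix, which takes out the level of these entries together, 36 such variants could be tested. Of these 36, 7 (19.4%) rose, 0 fell (1 at an unadjusted p under 0.05 in limma) and the median was 0.27. Of all 212 variant shares tested, 10.8% were higher and 18.4% lower in MOS. Several of them are copies of 1 pattern of values under different names, and with each pattern counted once 168 were left, of which 13.7% were higher and 11.3% lower. Among the 39 shortened variants with miR-339 included, R-2 had the third-highest change of share, R-1_1ss20CT ranked 12 and R-1 ranked 13. These ranks are a description, since R-1 and R-2 were chosen by their fold changes and R-1_1ss20CT passed the filter through MOS. The shares of miR-339 were taken within the whole arm under any species name, so they and the others are set against unlike sums. Variants with bases added at the 3′ end, the class of R+1, gave 29 other tested shares, of which 1 rose and 5 fell, with a median of -0.14. Shares within the same name and prefix are bound to each other, so the shortened and lengthened lists are not independent. For hsa-miR-574-5p, which is in both, the change ran from 0.12 (R-2_1ss21TG) to 1.11 (R-3) among its shortened variants. It was -0.87 for its R+1 and -0.64 for its R+2. The lengthened list may thus partly mirror the shortened one, and this was not tested. Entries with bases missing at the 5′ end, the class of L-2, numbered 49 among those tested. Of them 9 (18.4%) rose and 3 (6.12%) fell in MOS against CON, with a median of 0.11. These shares too were below the 20.2% and 9.11% of all entries tested, so no tendency is read from either count of levels.

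**Figure D4:**
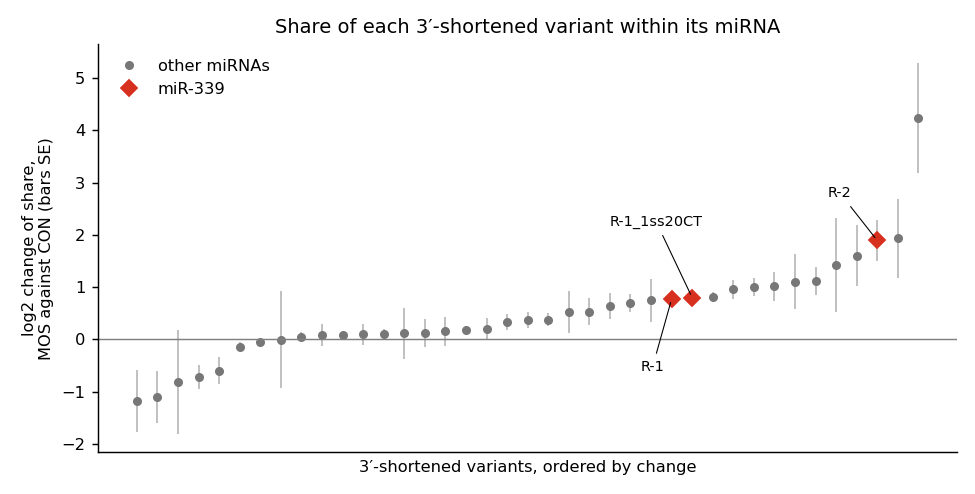
Change in the log2 ratio of each 3′-shortened variant to the other entries of its group, MOS against CON (y axis, bars SE), for the 39 tested variants ordered by change (x axis). The group is the arm for miR-339 and the same name and species prefix elsewhere. Names that also carry a substitution are included. Diamonds are the 3 miR-339 variants and circles the 36 variants of other microRNAs; R-2 is the third highest, and R-1 and R-1_1ss20CT lie among several others near 0.8.

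The same lists were close to 0 at the low dose. Of the 169 other entries of 18 to 20 nt, 6 rose and 1 fell in LOS against CON, with a median log2 fold change of -0.040, where 2.51% of all entries tested were higher and 0.396% lower. Of the 36 other shortened variants, 0 rose and 0 fell in share (1 each at an unadjusted p under 0.05 in limma), beside 1.89% called in either direction among all variant shares tested. For R-1 the log2 ratio to the rest of the arm differed by -0.094 (SE 0.10) for LOS against CON and by 0.77 (SE 0.10) for MOS against CON, and for R-2 by -0.24 (SE 0.40) and 1.89 (SE 0.40). The comparisons share the CON libraries.

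The entries whose levels followed the 5p sum most closely over the 9 libraries were hsa-miR-873-5p_L+1 (Pearson r = 0.83), ssc-miR-7134-5p (r = 0.79) and ssc-miR-98 (r = 0.74), among 664 different patterns of log2(value + 1). The first of these was at 0 in CON replicate 1, the library where the 5p sum was lowest, and was listed in the other 8. For R+1 they were ssc-miR-7134-5p (r = 0.90), ssc-miR-107_R-1 (r = 0.71) and oan-miR-29a-3p_R+3 (r = 0.69). These correlations describe 9 libraries that share their depth and scaling, and they were picked as the highest of many.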

How the data were processed

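Total RNA of PGCs was isolated with TRIzol, and small RNA libraries were made with the TruSeq kit and sequenced on a HiSeq 2500. According to the methods, the authors removed adapter dimers, junk, common RNA families and repeats with ACGT101-miR and aligned unique sequences of 18 to 26 nt to miRBase 21.0 precursors, allowing length changes at both ends and 1 mismatch inside. The deposited table holds a normalized signal per entry and library, named normalized counts by the authors; no source used here gave the normalization formula or a genome build. Of the per-sample columns, 0 were left out, and 1 blank line was dropped.

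Values were tested with limma 3.58.1 (R 4.3.3, trend) on log2(value + 1) for entries with at least 10 in at least 3 of 9 libraries, with 1 fit over CON, LOS and MOS and Benjamini-Hochberg adjustment over all 757 entries. Since the values are not raw counts, the count model foreseen for that case was not used. Arm sums replaced their entries in a refit, each sequence once. Shares were tested as the log2 ratio of a variant to the others of its group, with 1 added to each, in limma without a trend. For miR-339 that group was all sequences of the arm under any species name, and elsewhere the entries with the same name and species prefix. The fits were checked on simulated data. Reads were estimated from the step of values under 400, of which 98.3% to 99.9% were whole multiples within 0.01; intervals from reads cover counting error only.

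All entries of the name, both arm sums, entries sharing a seed and the 3 entries most correlated with the 5p sum and with the most abundant entry were named. The members and lists were chosen with earlier results of these data known.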

Additional observations from a re-analysis of the deposited data

How the results depend on the processing

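Alternatives were other pseudocounts (0.5 and 10), no low-value filter, equal library totals, median-of-ratios factors, a replicate block, limma without a trend, a fit to 6 libraries only, 1 entry per sequence and each library left out. Setting zeros to 3 reads was added after the data were seen. A count model and the addition of entries named mir-339-p5 or mir-339-p3 were not run, as the values are not raw counts and the table had 0 such entries. Same-numbered libraries did not pair (correlations of their deviations -0.0817 to 0.180). With a replicate block 208 entries passed for MOS against CON beside 222 without it, the log2 fold change of the 5p sum was 0.013 in both fits, and no call given for a tested entry or arm sum changed.

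For MOS against CON the 5p sum was -0.019 with median-of-ratios factors and -0.16 to 0.11 with 1 library left out, and for MOS against LOS it was 0.40 with equal totals and 0.14 to 0.18 with 1 library left out. The 3p sum ranged over -1.35 to -0.69 for MOS against CON. R+1 was 0.063 for MOS against CON and 0.24 for MOS against LOS with equal totals, and for MOS against LOS -0.051 to 0.046 with 1 library left out. Leaving out 1 library gave, for LOS against CON, -0.48 to 0.050 for 3p, -0.73 to 0.12 for R-2, -0.29 to 0.020 for the 23 nt form, and for their shares -0.57 to 0.25 for R-2, -0.025 to 0.086 for the 23 nt form and -0.071 to 0.065 for R+1. For MOS against CON it gave -0.041 to 0.27 for the 23 nt form and -0.43 to 0.039 for the share of 3p.

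With 1 library left out, the entries that passed numbered 14 to 37 for LOS against CON (22 with all libraries), 94 to 283 for MOS against CON (222) and 113 to 270 for MOS against LOS (225), and with no filter 280 passed in each comparison with MOS. The lowest counts of the last 2 came without MOS replicate 2, and 125 entries passed for MOS against CON without MOS replicate 1 and 146 without CON replicate 2. For MOS against LOS 145 passed without MOS replicate 1, and for LOS against CON the lowest count came without LOS replicate 1 and the highest without MOS replicate 3. Leaving out any MOS library removed R-1_1ss20CT from the entries tested. Variant shares that passed numbered 4 for LOS against CON, 0 with a pseudocount of 10 or zeros at 3 reads, 1 with 6 libraries or the block, 2 with no filter, a pseudocount of 0.5 or 1 entry per sequence, and 0 to 6 with 1 library left out. With 1 library left out they numbered 15 (without MOS replicate 2) to 60 for MOS against CON (62, or 89 with no filter), and for MOS against LOS 39, or 62 with no filter, 81 with a pseudocount of 10 and 13 to 41 with 1 library left out. Of calls that rose, the share was 86.2% for MOS against CON with equal totals, beside 68.9%. The causes were not tested.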
